A study of Mus musculus with 217 samples.

Results

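Astrocyte marker genes were followed through the day in the mouse striatum. The set holds 10 genes: Aqp4, Gfap, Gja1, Gjb6, Aldoc, Glul, Aldh1l1, S100b, Sox9 and Mt3. They were taken by name as known astrocyte markers, by a rule that uses no measured value but was written with earlier results of these data known. All 10 were present in each of the 3 regional tables, out of 12270 genes listed in any table. The regions were the nucleus accumbens (NAc), the dorsomedial striatum (DMS) and the dorsolateral striatum (DLS). All mice were C57BL/6J, about 10 weeks old, with no treatment given in the labels, and lived in a day of 12 h light and 12 h dark, with lights on at zeitgeber time (ZT) 0. Females and males were killed every 4 h from ZT2 to ZT22. The 37 females and 40 males of NAc, 34 females and 36 males of DMS and 35 of each sex of DLS came from 93 animals in all, with 5 to 7 libraries per region, sex and time. Each library was total RNA of bilateral 1 mm tissue punches. Such bulk tissue mixes cell types, so fewer astrocytes and less RNA per astrocyte cannot be told apart.

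Astrocytes are the glia that take up transmitters and potassium, pass metabolites to neurons and wrap vessels and synapses. Aqp4 is the water channel of their endfeet, and Gfap a filament protein of the cytoskeleton. Gja1 and Gjb6 encode the gap-junction proteins, or connexins, that couple astrocytes into a network. Glul encodes glutamine synthetase, which turns glutamate into glutamine, Aldoc a brain form of the glycolytic enzyme aldolase, and Aldh1l1 an enzyme of folate metabolism. S100b binds calcium, Mt3 is a metallothionein that binds zinc, and Sox9 is a transcription factor. Several of these are not exclusive to astrocytes: Gfap and Sox9 are also made by neural stem cells of the ventricle wall, Sox9 by ependymal cells, and S100b by some oligodendrocytes.

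Of the 10 genes, Gjb6 had a daily rhythm in all 3 regions, with its peak in the dark, while its partner connexin gene Gja1 passed the test in none. Promoters of these 2 genes and of Glul, the next most rhythmic gene, are shown because these genes set the contrast of the time course. Each line below is the 250 bases before the RefSeq start site (GRCm38.p6), read along the gene's strand; capitals mark a match to a motif. Gjb6 is on the minus strand (chr14:57133612-57133861), Gja1 on the plus strand (chr10:56377050-56377299) and Glul on the plus strand (chr1:153899679-153899928).
Gjb6: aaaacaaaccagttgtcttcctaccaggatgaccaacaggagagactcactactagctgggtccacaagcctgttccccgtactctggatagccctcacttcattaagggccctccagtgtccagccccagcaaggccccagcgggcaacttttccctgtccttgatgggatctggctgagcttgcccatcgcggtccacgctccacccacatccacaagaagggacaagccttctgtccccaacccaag
Gja1: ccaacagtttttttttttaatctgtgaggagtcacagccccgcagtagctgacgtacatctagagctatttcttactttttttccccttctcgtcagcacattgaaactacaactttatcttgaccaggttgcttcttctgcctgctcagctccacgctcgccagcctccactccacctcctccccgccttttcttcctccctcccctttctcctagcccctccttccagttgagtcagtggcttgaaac
Glul: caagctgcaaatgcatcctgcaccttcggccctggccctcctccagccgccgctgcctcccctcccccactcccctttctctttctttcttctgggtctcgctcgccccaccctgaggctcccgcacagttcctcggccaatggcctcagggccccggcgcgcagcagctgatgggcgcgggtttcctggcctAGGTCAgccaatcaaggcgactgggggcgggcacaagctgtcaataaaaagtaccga

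A set of 5 motifs was searched on both strands. The clock-protein E-box CACGTG occurred in 6.04% of 32536 such promoters and the ROR and REV-ERB half-site AGGTCA in 14.0%. The D-box TTATGNAA occurred in 3.07%, the glucocorticoid response element in 0.390% and the heat-shock element in 0.470%. None of the 5 was found in the windows of Gjb6 and Gja1. Glul held AGGTCA, whose first base lies at position -57 from the start site, and Aldh1l1 and Gfap each held the same half-site on the other strand, at -178 and -85. Such matches are letters, not measured binding.

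In the annotation of GRCm38, Gjb6 lies on chromosome 14 (57123303 to 57133611, 4 exon blocks) and Gja1 on chromosome 10 (56377330 to 56402513, 5 exon blocks). Glul lies on chromosome 1 (153899944 to 153909723), Gfap on chromosome 11 (102887336 to 102900912) and Aqp4 on chromosome 18 (15389496 to 15410982). Counts per gene are over exons. Glul shares 116 bases, 3.49% of its exon length, with Teddm2 on the other strand, and Aldh1l1 shares 499 bases, 11% of its exon length, with the antisense gene Gm15756. Whether the counting used strand is not given in the sources used here, so these overlaps make Glul and Aldh1l1 slightly uncertain.

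Deposited values are log2 normalised counts, and each region was normalised on its own. Whole reads could be recovered in DMS and DLS, where libraries held 35.7 to 57.5 and 29.7 to 56.8 M reads over the listed genes; the depth of NAc is unknown. Libraries stood apart in 1 respect that touches the results below. The share of mitochondrial ribosomal RNA in DMS left a gap between 37 libraries at 19 to 29.9% and 33 libraries at 35.3 to 52.6%, called the low and high class here. High-class libraries made up 3 of 12, 4 of 12, 7 of 11, 7 of 11, 10 of 12 and 2 of 12 at the 6 times in order. In DLS, 1 library (male number 13, ZT6) gave 68.4% of its reads to ribosomal-like RNA. Animal numbers up to 30 and above 30 were treated as a possible batch, and all 26 DMS libraries above 30 were of the high class, so in DMS range and class can hardly be told apart.

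Levels were compared between the genes per kilobase of exon and within a region. Glul was the highest in all regions, with a median of 8163 normalised counts per kb in NAc, 9958 in DMS and 9072 in DLS. Aldoc followed with 4447, 4680 and 4460, Mt3 with 2147, 2137 and 1850, and S100b with 729, 1074 and 818. These 4 kept their order in nearly all libraries: Mt3 was above S100b in 77 of 77 NAc, 69 of 70 DMS and 70 of 70 DLS libraries. Below them the neighbours overlapped. Gja1 was above Aqp4 in 64 of 77 NAc libraries, Aqp4 above Gja1 in 40 of 70 DLS libraries, and Sox9 above Aqp4 in 37 of 70 DMS libraries. Gjb6 had the lowest median of the 10, at 132, 138 and 155 normalised counts per kb, though in DLS Gfap was above it in only 37 of 70 libraries. The tables were scaled separately, so a level is not compared between regions by a test.

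Gjb6 gave the largest daily amplitude of the 10 genes in each region. In NAc its level at ZT6 ran from 7.33 through a median of 8.20 to 8.89, and at ZT10 from 7.80 through 8.14 to 8.57 (log2, n = 13 and 12). At ZT18 it ran from 8.30 through 8.70 to 9.33, and at ZT22 from 7.76 through 8.73 to 9.13 (n = 12 and 14). The highest medians were thus in the dark, and the ranges of all times overlapped. A 24 h cosine with sex as covariate (limma) gave an amplitude of 0.31 ± 0.07 (log2, SE, n = 77), a 1.53-fold change from trough to peak, with the peak at 18.8 ± 0.8 h (adjusted p = 0.00695).

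In DMS, Gjb6 ran from 8.0 through 8.33 to 8.73 at ZT6, and from 8.38 through 9.05 to 9.75 at ZT18 (lowest, median and highest log2 value, n = 12 each). The amplitude was 0.29 ± 0.06 (log2, SE, n = 70), 1.5-fold, with the peak at 16.4 ± 0.8 h (limma, adjusted p = 0.000324). In DLS it ran from 7.82 through 8.37 to 8.65 at ZT10, and from 8.49 through 8.90 to 9.44 at ZT18 (n = 11 and 12), ranges that share only 8.49 to 8.65. The amplitude there was 0.27 ± 0.05 (log2, SE, n = 70), 1.45-fold, with the peak at 19.4 ± 0.8 h (limma, adjusted p = 0.000437). Among all genes of a table, these amplitudes stood at the 98.7th, 94.7th and 98.5th percentile in NAc, DMS and DLS.

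The rhythm of Gjb6 was called in every one of the 77, 70 and 70 fits that left out 1 library, with folds of 1.49 to 1.57, 1.45 to 1.53 and 1.42 to 1.49. Within the 2 ranges of animal numbers in NAc, the fold was 1.5 above number 30 (n = 29, adjusted p = 0.370) and 1.56 up to 30 (n = 48, adjusted p = 0.0833, limma). In DLS it was 1.72 above number 30 (n = 39, adjusted p = 4.99e-06) and 1.23 up to 30 (n = 31, adjusted p = 0.512). A test of the rhythm between the ranges, amplitude and peak together, had an unadjusted p of 0.0180, and limma called no gene of that table for it. In DMS the fold was 1.43 in the high class (n = 33, adjusted p = 0.0439) and 1.27 in the low class (n = 37, adjusted p = 0.130). With a term for the class, the fold in DMS was 1.33 and the call stood (limma, adjusted p = 0.00506). In NAc with time as 6 levels in place of a cosine, Gjb6 had an adjusted p of 0.0659.

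**Figure D1:**
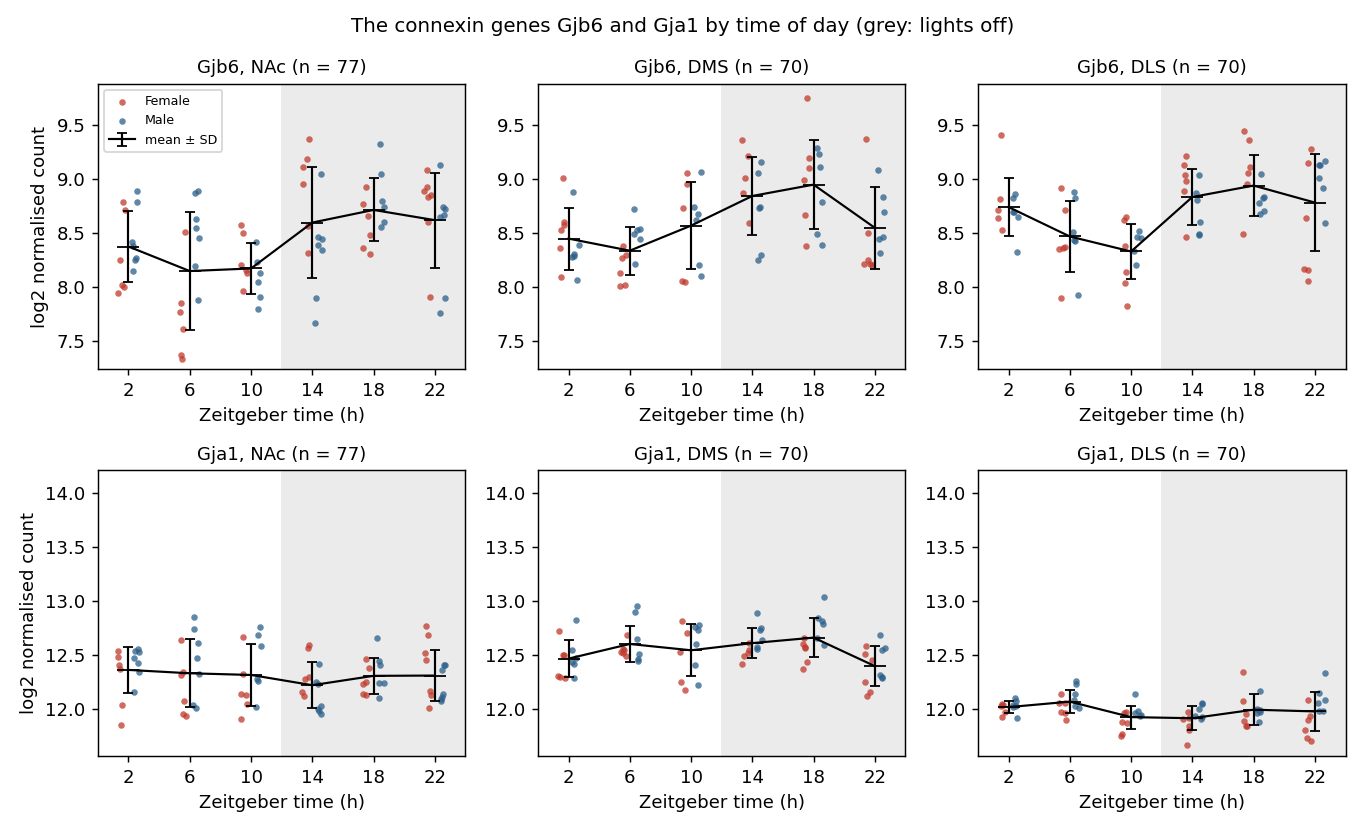
Log2 normalised counts of Gjb6 (top) and Gja1 (bottom) against zeitgeber time in hours, in NAc, DMS and DLS; each point is a library, red for females and blue for males, and black bars give the mean and SD at each time. Gjb6 has its highest mean at ZT18 in all 3 regions, while the highest mean of Gja1 is 1.1, 1.2 and 1.11-fold its lowest in NAc, DMS and DLS.

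Gja1, the other connexin gene of astrocytes, was the more abundant of the pair and the flatter one. In NAc its median was 12.42 at ZT2, 12.32 at ZT6, 12.27 at ZT10, 12.23 at ZT14, 12.24 at ZT18 and 12.26 at ZT22 (log2). The ranges of all 6 times overlapped. Its fold from trough to peak was 1.07 in NAc, 1.12 in DMS and 1.08 in DLS (limma, adjusted p = 0.720, 0.0523 and 0.10). The DMS value lay just above the threshold: leaving out 1 library called it in 17 of 70 fits, it passed with time as 6 levels (adjusted p = 0.0153) and with libraries shifted to an equal median (adjusted p = 0.0481), and the term for the class took its fold to 1.04 (adjusted p = 0.616). In DLS 1 of the 70 fits called it, the one without female number 29 (adjusted p = 0.0215), as did a fit with a term for mitochondrial rRNA (1.10-fold, adjusted p = 0.0175, limma). Among other connexin genes, Gjc1 passed in DMS at 1.4-fold with the peak at 7.8 h (limma, adjusted p = 5.0e-05), and Gjc3, known from oligodendrocytes, at 1.15-fold with the peak at 5.5 h (adjusted p = 0.0155). Both peaks lay in the light, and neither gene passed in NAc or DLS (limma, adjusted p = 0.684 and 0.264 for Gjc1, 0.648 and 0.994 for Gjc3).

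Over all 10 genes, the rhythm test called 2 in NAc, where it called 2.56% of 11867 genes. It called 3 in DMS, where it called 51.3% of 12101 genes, so the DMS count lies below its background. With the class term it called 2 in DMS against 25.2% of genes. In DLS it called 1, against 21% of 11394 genes. The unadjusted p was under 0.05 for 3, 5 and 3 of the 10 genes in NAc, DMS and DLS. These 3 counts have no background, as the share of all genes under that unadjusted limit was not computed.

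Glul, glutamine synthetase, was the next rhythmic gene. In NAc its median was 14.70, 14.54, 14.69, 14.74, 14.77 and 14.79 at the 6 times in order (log2), with overlapping ranges. The fold was 1.16, with the peak at 18.6 ± 1.0 h (limma, adjusted p = 0.0419, n = 77), and the call held in 52 of the 77 fits without 1 library. It was lost with libraries rescaled outside mitochondrial and ribosomal-like genes (1.13-fold, adjusted p = 0.109) and with time as 6 levels (adjusted p = 0.244). In DMS the fold was 1.21, with the peak at 15.3 ± 0.9 h (adjusted p = 0.00240, n = 70). With the class term it was 1.07, with the peak at 18.3 h (limma, adjusted p = 0.0473). In DLS, its fold was 1.02 (limma, adjusted p = 0.843), from an amplitude of 0.02 ± 0.02 (log2, SE).

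Aldoc, the aldolase gene, passed in DMS alone, at 1.17-fold with the peak at 13.2 ± 1.1 h (limma, adjusted p = 0.0104). The call was lost with the class term, at 1.05-fold (adjusted p = 0.478), with the number range (1.06-fold, adjusted p = 0.148) and with time as 6 levels (adjusted p = 0.0541). The Aldoc values in NAc and DLS were 1.14-fold (adjusted p = 0.121) and 1.07-fold (adjusted p = 0.274, limma). Aqp4, Gfap, Aldh1l1, S100b, Sox9 and Mt3 passed in no region. Their folds were 1.02 to 1.21, Mt3 in DMS was called in 7 of 70 fits without 1 library and S100b there in 1, and the amplitude of Gfap had the widest error, 0.14 ± 0.14 in DMS (log2, SE).

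**Figure D2:**
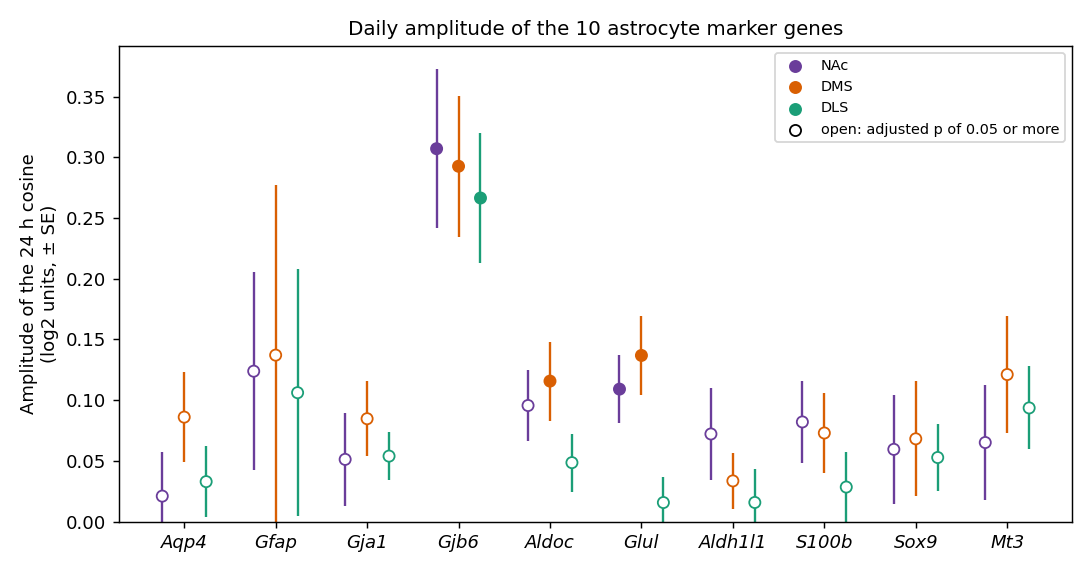
Amplitude of the 24 h cosine (log2 units, with SE) of the 10 genes in NAc (purple), DMS (orange) and DLS (green); filled points passed the adjusted threshold of 0.05. Gjb6 stands at 0.27 to 0.31 in all regions and no other gene exceeds 0.14.

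Differences of the rhythm between regions were tested directly on the 11283 shared genes, with the animal as a block. None of the 10 genes passed. NAc minus DMS called 0% of all genes, NAc minus DLS 0.31% and DMS minus DLS 0% (limma). The unadjusted p was under 0.05 for 4, 1 and 3 of the 10 genes. The share of all genes under that unadjusted limit was not computed, so these counts have no background here. For Glul the unadjusted p was 0.0201 between NAc and DMS, 0.0470 between NAc and DLS and 0.00510 between DMS and DLS (limma). With the class term in DMS, the unadjusted p of Glul was 0.147 between NAc and DMS and 0.559 between DMS and DLS (limma). Between NAc and DLS it was 0.00997 in that fit (limma, adjusted p = 0.249).

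Lists of further astrocyte genes gave the surroundings of these rhythms. Of 18 other astrocyte markers, the test called 2 of 18 in NAc, 12 of 17 in DMS (8 with the class term) and 6 of 17 in DLS. Of all genes it called 2.56%, 51.3% (25.2% with the class term) and 21%. The median amplitudes of these markers were 0.07, 0.08 and 0.06 on the log2 scale, against 0.07, 0.11 and 0.07 over all genes. Fgfr3, a growth factor receptor, was called in all 3 regions at 1.22, 1.26 and 1.24-fold, with peaks at 16.7, 17.2 and 18.7 h. The secreted protease gene Htra1 was also called in all 3, at 1.31, 1.31 and 1.14-fold, with peaks at 19.7, 17.8 and 21.1 h. Ppp1r3c, which targets a phosphatase to glycogen, was called in NAc and DMS at 1.42 and 1.43-fold, peaking at 18.7 and 16 h, and had 1.12-fold in DLS (adjusted p = 0.206). These 3 peaked in the dark, as Gjb6 did. The called genes of the list of 18 were split: 2, 6 and 3 peaked in the dark and 0, 6 and 3 in the light. Ttyh1 of that list was called in DMS at 1.12-fold, with the peak at 2.5 h (limma, adjusted p = 0.00109, and 0.0524 with the class term).

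Other genes peaked in the light. The glutamine transporter gene Slc38a3 was called in DMS and DLS at 1.29 and 1.28-fold, with peaks at 9.5 and 9.4 h, and had 1.16-fold in NAc (limma, adjusted p = 0.254). Slc16a1, a lactate transporter gene that vessel cells also express, was called in all regions at 1.32, 1.2 and 1.33-fold, with peaks at 4.5, 7.9 and 5.3 h. Slc30a1, a zinc exporter gene, was called in NAc and DLS at 1.2 and 1.14-fold, peaking at 5.9 and 7.7 h, and had 1.09-fold in DMS (limma, adjusted p = 0.125), where it was called with the class term (1.13-fold, adjusted p = 0.00275). The DMS calls of Fgfr3, Htra1, Ppp1r3c, Slc38a3 and Slc16a1 held with the class term.

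The other lists were read against the 2.56%, 51.3% and 21% of all genes called in NAc, DMS and DLS, and 25.2% in DMS with the class term. Transport and metabolism of glutamate, GABA and ammonia had 0 of 8, 4 of 8 and 1 of 7 genes called in the 3 regions, and 1 in DMS with the class term. Potassium, water and volume control had 0, 3 and 1 of 9, and 0 in DMS with the class term. Reactive astrocyte genes had 0 of 2, 1 of 6 and 0 of 3 measured genes called, and 0 in DMS with the class term. Metallothioneins and zinc transporters had 1, 2 and 1 of 4, and aldolases, lactate and glycogen 2, 3 and 1 of 8, with 1 and 2 in DMS with the class term. The Sox factors had 0, 2 and 2 of 7, the S100 genes 0, 5 and 4 of 5, and the folate and aldehyde dehydrogenases 1 of 4, 2 of 5 and 0 of 4. With the class term these 3 lists had 1, 2 and 0 genes called in DMS. Among the last, Aldh1a1 was called in NAc at 1.48-fold, peaking at 16.8 h (limma, adjusted p = 0.00755), and in DMS at 1.4-fold, peaking at 14.6 h (adjusted p = 0.0123), a call lost with the class term (1.22-fold, adjusted p = 0.248).

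Females and males differed in none of the 10 genes at the adjusted threshold. Across all genes the limma test called 0.0758% for NAc, 0.909% for DMS and 0.202% for DLS. The unadjusted p was under 0.05 for 1 gene in NAc, 2 in DMS and 1 in DLS, and the share of all genes under that limit was not computed. Sox9 in NAc averaged 10.13 ± 0.33 in females and 10.33 ± 0.23 in males (log2, SD, n = 37 and 40), a difference of -0.20 ± 0.06 (SE; limma, adjusted p = 0.627). With the mitochondrial rRNA share as a term, it was -0.25 (adjusted p = 0.00199).

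The Gja1 mean was below that of males in females of each region, without passing. In DMS it averaged 12.47 ± 0.17 in females and 12.61 ± 0.21 in males (log2, SD, n = 34 and 36), a difference of -0.13 ± 0.04 (SE; limma, adjusted p = 0.108). In DLS it averaged 11.92 ± 0.13 in females and 12.03 ± 0.10 in males (n = 35 each), a difference of -0.11 ± 0.03 (SE; adjusted p = 0.0860). In NAc the difference was -0.05 ± 0.06 (SE; limma, adjusted p = 0.994). The DMS difference passed with a term for the class (-0.14, adjusted p = 0.00578) or for the number range (-0.17, adjusted p = 0.00466). The DLS difference passed without female number 29 (limma, adjusted p = 0.00638).

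The sexes were also compared in their rhythm, and no gene was called in any region, so the background was 0% in NAc, 0% in DMS and 0% in DLS (limma). Among the 10 genes, the unadjusted p was under 0.05 for 1, 0 and 1, and the share of all genes under that limit was not computed. For Gjb6 in NAc, the amplitude was 0.47 ± 0.09 in females and 0.21 ± 0.09 in males (log2, SE; unadjusted p of the difference 0.0154, adjusted p = 0.979, limma). For Aldoc in DLS it was 0.13 ± 0.03 in females and 0.04 ± 0.03 in males (unadjusted p of the difference 0.00224, adjusted p = 0.293, limma).

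The 10 genes divided by library class in DMS, where 78.1% of all genes were called between the classes. All 10 were called, 7 higher and 3 lower in the high class. Glul ran from 15.07 through 15.25 to 15.41 in the high class and from 14.73 through 14.83 to 15.06 in the low class (lowest, median and highest log2 value), so the classes did not overlap. Its difference was 0.36 ± 0.02 (log2, SE; limma, adjusted p = 2.25e-22). Mt3 differed by 0.45 ± 0.05, Gjb6 by 0.40 ± 0.08, Aldoc and Aqp4 by 0.31 ± 0.03 and 0.31 ± 0.04, Gja1 by 0.23 ± 0.04 and Aldh1l1 by 0.11 ± 0.03.

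Gfap, Sox9 and S100b went the other way. Gfap ran from 8.99 through 10.30 to 11.30 in the high class and from 9.41 through 11.49 to 12.56 in the low class, with overlap. The difference was -1.12 ± 0.17 (log2, SE; limma, adjusted p = 1.87e-08), against -0.27 ± 0.06 for Sox9 and -0.23 ± 0.04 for S100b. Markers of other cells also differed between the classes, as did 78.1% of all genes. The share of all genes in each direction was not computed. All 7 neural stem cell and neuroblast markers were lower in the high class, where their summed level ran from 1101 through 3253 to 7125 normalised counts, against 2603 through 6901 to 15710 in the low class. All 5 red blood cell markers were higher in the high class, as were 7 of 8 microglial ones, with no microglial marker lower. Of 10 oligodendrocyte markers, 3 were higher and 3 lower, and their summed level was 119761 to 192991 with a median of 146363 normalised counts in the high class, and 146525 to 267016 with a median of 180955 in the low class. Of 5 oligodendrocyte precursor markers 1 was higher and 3 lower, and of 8 endothelial and mural markers 5 were higher and 2 lower. Of 10 medium spiny neuron markers 5 were higher and 5 lower. Of 4 listed ependymal and choroid plexus markers 0 were higher and 1 lower, and of 2 cortical neuron markers 0 and 0. The part of other cells in the differences of the 10 genes was not tested.

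**Figure D3:**
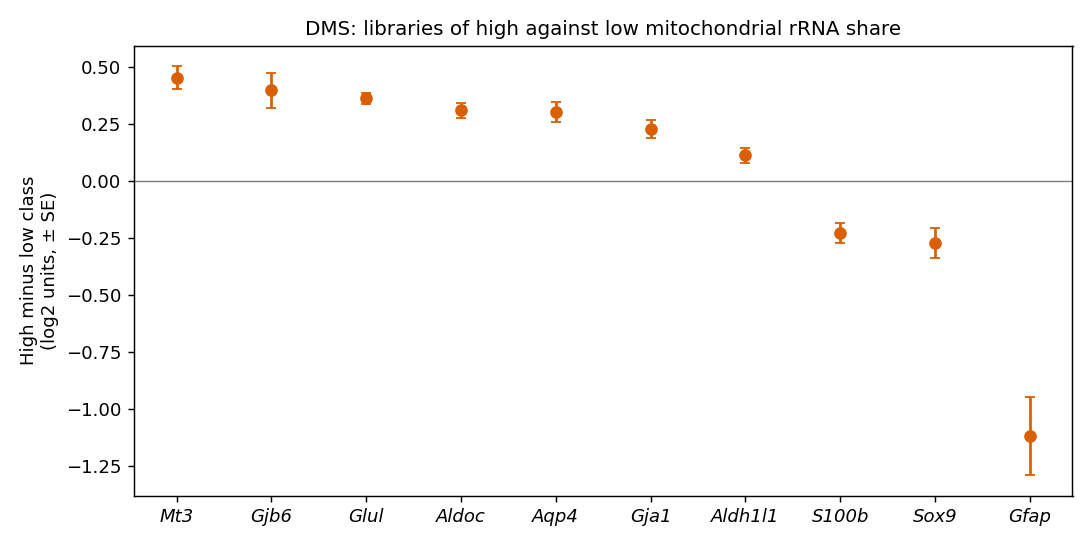
Difference between DMS libraries of high and low mitochondrial rRNA share (log2 units, high minus low, with SE) for each of the 10 genes, n = 33 and 37. Mt3 to Aldh1l1 lie above 0, and S100b, Sox9 and Gfap below, Gfap by more than 1 unit.

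Gfap was the most variable of the 10 between libraries. Its coefficient of variation was 37.6% in NAc, 56.9% in DMS and 85.7% in DLS, and its SD stood at the 84.9th, 98.6th and 98.9th percentile of all genes. The spread of Glul was 12.5%, 14.8% and 8.20%. In DLS, 1 library decided the value of Gfap: female number 29 at ZT18 had 12.48, the next library 10.55 and the median library 9.42 (log2). That library was 8.32-fold above the median, and without it the coefficient was 32.4%.

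Female number 29 also ranked first of 70 in DLS for Aqp4 (12.13, against a median of 11.28 in the others) and for Gja1 (12.34, against 11.97). Its DMS library was of the low class, the one with higher Gfap, and its Gfap there ranked 3 of 70 over both classes at 12.21. In NAc, its Aqp4 was first of 77 at 11.95 and its Gfap ranked 23 at 9.76. Its Gjb6 ranked 49, 46 and 48 in NAc, DMS and DLS. The summed microglial markers of its DLS library, 12082 normalised counts, were the highest of 70. Of the 6 ependymal and choroid plexus markers, only 1 was listed in DLS, against 4 in DMS. That 1 gene had 108 normalised counts in the DLS library of female number 29, against a median of 127. In its DMS library the sum of the 4 was 15850, against a median of 889. The values of DLS and DMS thus cover different genes, and the ependymal content of its DLS library was not tested.

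**Figure D4:**
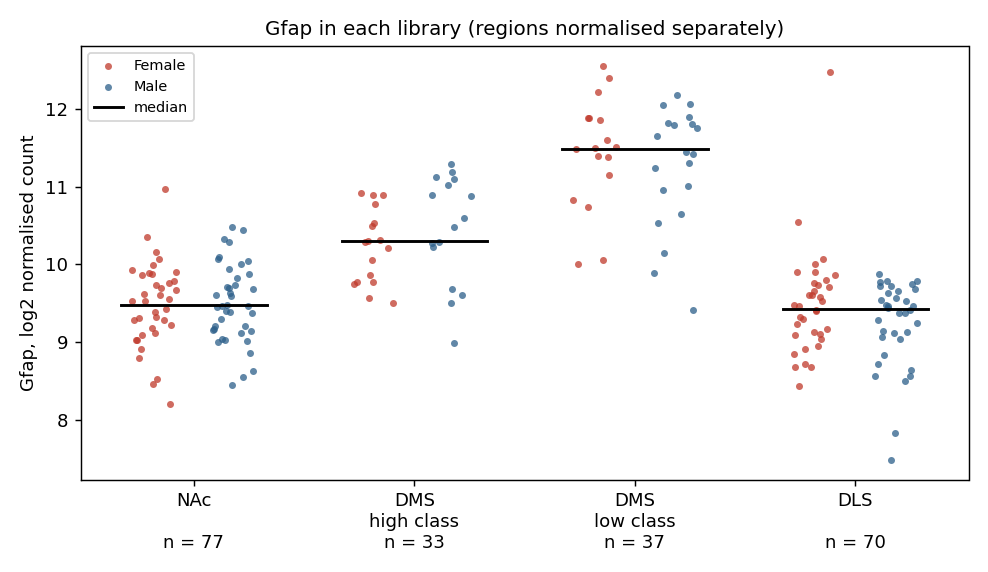
Gfap (log2 normalised count) in each library of NAc, the high and low class of DMS, and DLS; red points are females, blue points males and black lines medians. The DMS low class has the highest median, 11.49, and 1 female DLS library stands alone at 12.48.

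Relations to other cell types were examined across libraries. Each value was first taken as its deviation from the mean of its sex and time and, in DMS, of its class. The mitochondrial rRNA share was not removed in NAc and DLS. Its part in the correlations given from here on was not tested. The deviations of the 10 genes were then set against the mean deviation of 9 marker lists for other cells, 270 relations in all, with permutation p-values adjusted over them. In NAc, Gfap went with the oligodendrocyte markers (r = 0.64, rho = 0.70, permutation p = 1e-05 for each, the smallest possible, adjusted 0.000142 and 0.000135, n = 77). Without the 2 extreme libraries r was 0.63, and it was 0.57 above and 0.69 up to number 30. In DMS, Gfap went with the neural stem cell and neuroblast markers (r = 0.68, rho = 0.69, both at the smallest permutation p of 1e-05, n = 70), with r = 0.65 in the high and 0.73 in the low class and 0.66 without the 2 extremes. It ran against the medium spiny neuron markers there (r = -0.61, rho = -0.62, permutation p = 1e-05 for each, r = -0.59 without the 2 extremes, -0.49 in the high and -0.67 in the low class).

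The genes closest to Gfap, picked by the size of r and so given without a test, were listed per region. In NAc they were Ndrg1 (r = 0.67), Sept4 (0.65), Lamp1 (0.65) and Mag (0.64), of which Mag is a myelin gene. In DMS they were Thbs4 (0.82), Igfbp5 (0.82), Sfrp1 (0.75) and Nudt4 (0.74). In DLS they were Igfbp5 (0.66), Id3 (0.60), Aqp4 (0.57) and Tspan15 (0.57), and without the 2 extreme libraries Aqp4 stood at 0.41.

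Sox9 went with the neural stem cell and neuroblast markers in every region. In DMS r was 0.87 (rho = 0.86, permutation p = 1e-05 for each, n = 70), and r was 0.84 without the 2 extremes, 0.88 in the high class and 0.86 in the low class. All 7 markers were listed in DMS, but only 5 of the 7 in NAc. In NAc r was 0.70 (rho = 0.68, permutation p = 1e-05 for each, n = 77), with 0.67 without the 2 extremes, 0.65 above and 0.74 up to number 30. In DLS, where 3 of the 7 markers were listed, r was 0.55 (rho = 0.52, permutation p = 1e-05 for each, n = 70), with 0.52, 0.44 and 0.75. Sox11, a relative of Sox9, is among these markers. S100b in DMS had r = -0.50 with the same list (rho = -0.56, permutation p = 4e-05 and 1e-05), with r = -0.56 without the 2 extremes, -0.51 in the high and -0.50 in the low class. With microglial markers it had r = 0.55 (rho = 0.60, permutation p = 1e-05 for each), with 0.60 without the 2 extremes, 0.60 in the high and 0.51 in the low class. The part of cell content in these relations was not tested.

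**Figure D5:**
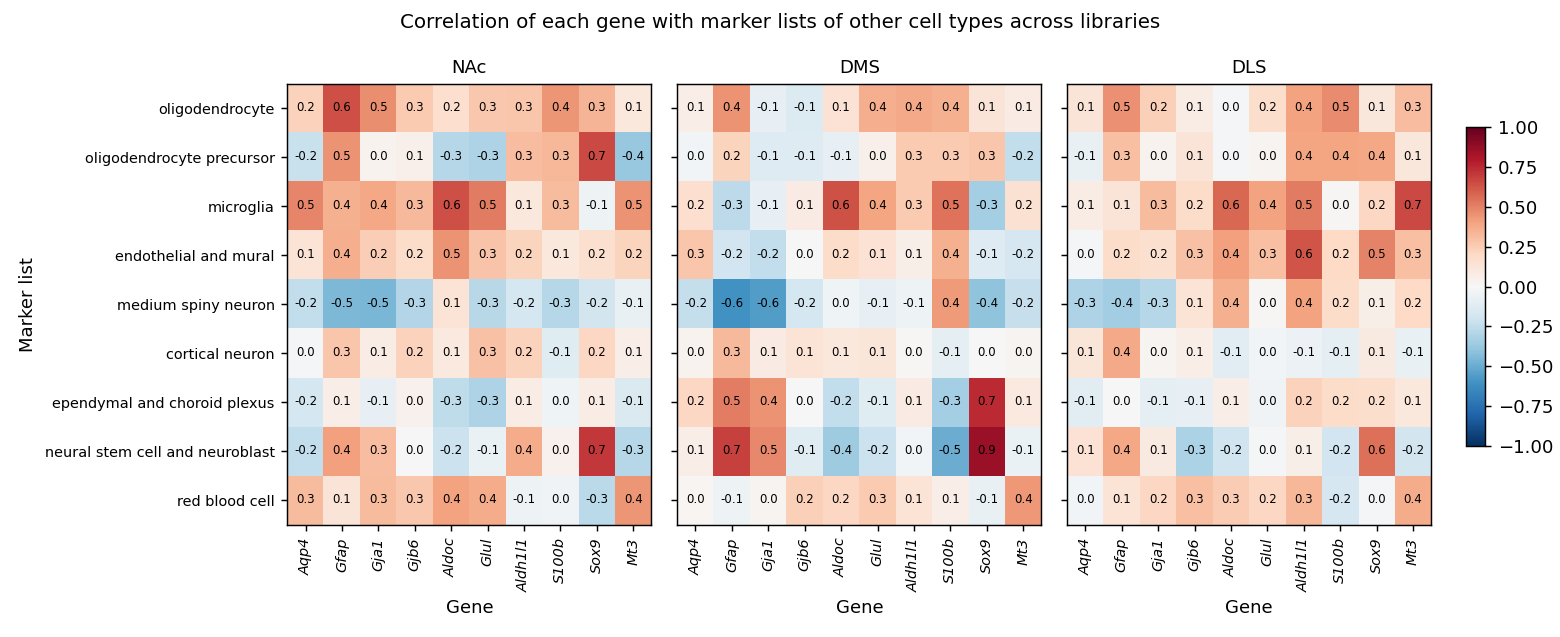
Pearson r across libraries between each of the 10 genes (columns) and the mean of each marker list of another cell type (rows), in NAc, DMS and DLS; red is positive and blue negative. Sox9 with neural stem cell markers in DMS, at 0.87, is the strongest of the 270 values.

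The 10 genes varied together only in part. Over their 45 pairs, the median r was 0.30 in NAc, 0.16 in DMS and 0.11 in DLS, against 0.00 over all pairs of genes in each table. Aldoc and Glul, both enzymes of metabolism, formed the closest pair in NAc (r = 0.77, rho = 0.76, n = 77) and in DMS (r = 0.70, rho = 0.69, n = 70), each at the smallest permutation p of 1e-05. Without the 2 extreme libraries r was 0.74 and 0.67, in NAc it was 0.62 above and 0.82 up to number 30, and in DMS 0.70 in the high and 0.69 in the low class. Over all DLS libraries the closest was Aldoc with Aldh1l1 (r = 0.64, rho = 0.65, permutation p = 1e-05 for each, n = 70). Its r was 0.61 without the 2 extremes, 0.49 above and 0.41 up to number 30. Aldoc with Glul had r = 0.57 over all DLS libraries, and 0.61 above and 0.68 up to number 30. Within each range, Aldoc was thus closer to Glul than to Aldh1l1. Gfap and Sox9 were paired in DMS (r = 0.66, rho = 0.65, permutation p = 1e-05 for each, r = 0.64 without the 2 extremes, 0.63 in the high and 0.69 in the low class). Over the 135 pair relations, the adjusted values of these p were 7.5e-05 for r and 9.64e-05 for rho. Glul, Aldh1l1, Gja1 and Aldoc lay closest to the mean of the other 9, with a mean r over regions of 0.57, 0.52, 0.51 and 0.49, and S100b and Sox9 lay farthest, both at 0.14.

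The genes outside the set that were most like its mean were Mlc1 (mean r = 0.73), Cd81 (0.70), Ndrg2 (0.65), Cst3 (0.65), Sdc4 (0.65), Gm2a (0.64), Pla2g7 (0.63), Csrp1 (0.63), Selenop (0.62) and Plekhb1 (0.62), of 11273 ranked. Mlc1 encodes an astrocyte membrane protein. Mlc1, Ndrg2 and Pla2g7 belong to the astrocyte lists used here. These were chosen by the size of r, and the libraries they share also share depth and tissue content.

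The level of Aqp4 in 1 region went with its level in another region of the same animal. Its deviations in 2 regions of the same animal were correlated in all 3 pairings, among 30 such relations with permutation p-values adjusted over them. Between NAc and DMS r was 0.49 (rho = 0.46, permutation p = 7e-05 and 0.00016, adjusted 0.0007 and 0.0016, n = 63 animals). Between NAc and DLS r was 0.51 (rho = 0.39, permutation p = 4e-05 and 0.00335, adjusted 0.0006 and 0.0126, n = 57), and between DMS and DLS 0.50 (rho = 0.41, permutation p = 0.00032 and 0.00275, adjusted 0.0016 and 0.0118, n = 51). The median over all shared genes was 0.05, -0.01 and 0.14, and Aqp4 stood at the 99.8th, 99.8th and 98.9th percentile.

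The relation of Aqp4 was found in both ranges of animal numbers, with r of 0.48, 0.46 and 0.48 above 30 and 0.50, 0.54 and 0.51 up to 30 for the 3 pairings. Without the 2 animals farthest from the median it was 0.41, 0.38 and 0.32, and without female number 29 alone 0.41, 0.40 and 0.34. Between DMS and DLS, Glul, Gjb6, Aldoc, Mt3 and Aldh1l1 also had adjusted p-values under 0.05. In the pairings with NAc none of the 9 other genes did. The share of all genes passing was not computed, but the 95th percentile of r over all shared genes was also highest between DMS and DLS. It was 0.40 there, against 0.28 for NAc with DMS and 0.24 for NAc with DLS. With the number range removed, Aldoc went from 0.50 to 0.38 and Aldh1l1 from 0.42 to 0.34, while Glul, Gjb6 and Mt3 kept 0.57, 0.51 and 0.43. Glul had r = 0.57 (rho = 0.49, permutation p = 2e-05 and 0.00027, adjusted 0.0006 and 0.00203, n = 51 animals), with 0.51 without the 2 extremes, 0.65 above 30 and 0.48 up to 30. Gjb6 had r = 0.51 (rho = 0.53, permutation p = 0.00013 and 8e-05, adjusted 0.000975 and 0.0012), with 0.42 without the 2 extremes, 0.62 above 30 and 0.26 up to 30. In NAc against DMS and DLS, the r of Gjb6 was -0.03 and 0.08.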

How the data were processed

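Total RNA libraries were made with a stranded ultra-low-input kit, sequenced as 75 bp pairs with 40 M reads targeted, aligned with HISAT2 2.1.0 to mouse Ensembl GRCm38 and counted per gene with HTSeq 0.10.0, per the series' design text (the submitters' processing notes also list the human build GRCh38). The deposited log2 values were made by the authors, per that text, by filtering genes and normalising each region on its own with DESeq2. The DLS table holds 11394 genes, where 11395 are stated. Values of DMS and DLS were whole reads times a constant per library (100% of values within 0.01 of a read); those of NAc were not, and 9 lie below 0, so a further step, not given in the sources used here, may have been applied to NAc.

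Rhythm was tested with limma 3.58.1 (variance trend) as a 24 h cosine and sine with sex as covariate, across all genes of a region, with Benjamini-Hochberg adjustment at 0.05. Female minus male used time as 6 levels. Animals are the replicates, and p-values measure the spread between them. A fold from trough to peak is on the log2(count + 1) scale. The DMS classes were split at the widest gap of mitochondrial rRNA shares. Correlations used 100000 permutations. Named genes were the 10 members, up to 4 genes of a list with the smallest adjusted p, of which some are given, and the 10 genes most like the members' mean; the genes closest to Gfap, their marker relations and female number 29 were chosen after their values were seen. One further gene is not reported here. The members and lists were chosen with earlier results of these data known. The tests were tested on simulated data. Promoter sequences were read from a RefSeq table of GRCm38.p6.

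Alternatives were other covariates, scalings, filters, a pseudocount of 16, time as 6 levels, a replicate block, voom on recovered reads and leaving out each library.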

Additional observations from a re-analysis of the deposited data

Results flagged for a closer look

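Gjb6 and Gfap were screened for libraries far from the rest of their region, sex and time, and 4 of 72 groups held one; chance alone flags about 1 in 20 groups. Gjb6 in NAc females at ZT22 was 7.91 (log2) in animal 1, against 8.60 to 9.08 in the other 6. Gfap in NAc females at ZT18 was 8.80 in animal 28, against 9.56 to 9.90 in the others. Gjb6 in DMS females at ZT22 was 9.37 in animal 49, against 8.20 to 8.50 in the others. Gfap in DLS females at ZT18 was 12.48 in animal 29, against 8.85 to 9.86 in the others. All 4 were female libraries. Leaving out any one of them kept the rhythm calls of Gjb6.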

How the results depend on the processing

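Of the 10 genes, 2 passed the rhythm test in NAc. The count was 1 with libraries rescaled to an equal sum, where Glul was lost, 0 with time as 6 levels, 0 with animals numbered up to 30 and 0 with those above 30, and 1 to 3 with each library left out. In DMS the count of 3 was 1 in the high class (Gjb6), 1 in the low class (a gene other than Gjb6), and 3 to 6 with each library left out. In DLS the count of 1 was 2 with a term for mitochondrial rRNA, 0 with animals up to 30, and 1 to 2 with each library left out. The sex comparison called 0 in each region. With a term for mitochondrial rRNA it called 1 in NAc (Sox9). In DMS it called 1 (Gja1) with a term for the number range, and 1 with one for the class. In DLS the range was 0 to 1 with each library left out (Gja1 without female number 29). The causes were not tested, though subsets also hold fewer libraries. Differences near 0 changed sign when 1 library was left out, such as Gfap between the sexes in NAc (-0.06 to 0.02, log2), and none of these was called. Subsets and voom were added after the data were seen.

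Over all genes, the rhythm count of 304 in NAc was 508 with mitochondrial rRNA, 183 with 6 levels and 32 above number 30. In DMS, 6207 was 3051 with the class, 3772 with the number range, 1811 in the high and 948 in the low class. In DLS, 2392 was 1425 with equal sums and 331 up to number 30. The sex count of 9 in NAc was 330 with mitochondrial rRNA, and that of 110 in DMS was 509 with the class, 1995 with the number range and 202 with the replicate block.

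The animal number as a replicate block left the rhythm counts at 2, 3 and 1. It called 1 gene for sex in DMS (Gja1, adjusted p = 0.0481, limma) and 1 in DLS (Gja1, adjusted p = 0.0431). A female and a male sharing a number had a median correlation of deviations of -0.02, -0.08 and 0.04 in NAc, DMS and DLS. The correlation estimated for the block in the rhythm fits was -0.02, 0.23 and 0.15. Whether the numbers pair the samples in DMS and DLS was thus not settled. Planned TMM-voom and edgeR tests were not run, as the deposited unit is log2. Depth in NAc is unknown, and Gfap and Gjb6 had as few as 31 and 33 reads in a DLS library.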

Other observations

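The SD between libraries was larger in females than in males for 8 of the 10 genes in NAc, 5 of 10 in DMS and 10 of 10 in DLS. The SD of Gjb6 was 0.51 in females and 0.41 in males in NAc, 0.46 and 0.34 in DMS, and 0.45 and 0.28 in DLS (log2). The SD of Glul in DLS was 0.16 in females and 0.07 in males, and that of Aldoc there 0.18 in females and 0.10 in males. Gja1 in DMS went the other way, with 0.17 in females and 0.21 in males. These differences of spread were not tested. The counts of 8, 5 and 10 genes have no background, as the share over all genes was not computed.

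S100b passed no test between regions of the same animal. Its DMS and DLS deviations had r = -0.23 (rho = -0.14, permutation p = 0.0973 and 0.33, adjusted 0.195 and 0.516, n = 51 animals), and -0.06 without the 2 animals farthest from the median. That r was -0.41 with the number range removed, -0.17 above number 30 and -0.49 up to 30. In the pairings of NAc with DMS and with DLS it was 0.11 and 0.03.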
